A study of Mus musculus with 9 samples.

Results

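The Zfp genes named with a number encode proteins with zinc fingers, short folds around a zinc ion that in most of these proteins read DNA. The genes described here are the autosomal protein-coding genes of the mouse assembly GRCm38 whose symbol is Zfp followed by a number, and there are 360 of them among 20661 autosomal protein-coding genes. DNA methylation was measured in splenic B cells by whole-genome bisulfite sequencing, in which unmethylated cytosines are converted and methylated ones are kept (bisulfite does not separate methylated from hydroxymethylated cytosine). The 3 genotypes were mice homozygous (HOM) or heterozygous (HET) for a point mutation of Kmt2d, an A to T change on chromosome 15 that gives Ile5482Asn, and wild-type mice (WT). In all of them the B cells were bulk splenic B cells, untreated and purified by magnetic depletion of other cells; no source used here gives strain, age or sex. The deposited table holds 1 pair of count columns per genotype, each treated as 1 library, although the labels list 2 B cell samples per genotype. ENU, the name of a mutagen, stands in the column names of HOM and HET but not in that of WT. Blood depleted of B cells was not analysed here.

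Many Zfp proteins of mammals carry a KRAB domain, which recruits the corepressor TRIM28 and with it the histone H3K9 methyltransferase SETDB1. Many of these KRAB proteins bind and silence retroelements. Many genes of this family arose by repeated duplication and sit in clusters of similar neighbours. The product of Kmt2d, a histone methyltransferase, adds the first methyl group to H3K4, a mark of enhancers and promoters, and H3K4 methylation and DNA methylation tend to exclude each other at the starts of genes.

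A Zfp gene was called clustered when it lay in a run of at least 3 Zfp genes with gaps of at most 250 kb, and single otherwise. By that rule 187 genes were clustered, in 28 clusters of which 16 held at least 5 genes, and 173 were single. Chromosome 7 carried 90 of the 360 genes, chromosome 17 carried 41 and chromosome 13 carried 32. The level of a window is the sum of methylated reads over the sum of covering reads at its CpGs, in percent. Each gene had 3 windows, which were its 2 ends (from 1000 bp outside the gene to 500 bp inside it) and the gene body between them. The end with more CpGs is called the CpG-richer end and the other the CpG-poorer end. The CpG-richer end was the 5′ end in 279 of the 301 Zfp genes (92.7%) whose strand a RefSeq promoter table gives, against 12911 of 16155 other genes (79.9%). Windows needed 3 CpGs and 30 CpG reads or more in each library. On that rule 338 genes had a CpG-richer end (178 clustered, 160 single), 298 a CpG-poorer end (154 clustered, 144 single) and 349 a gene body (185 clustered, 164 single), while 11 genes had no window.

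The libraries held 208447711 (HOM), 272874642 (HET) and 193984954 (WT) CpG reads at 20383623 autosomal CpGs, or 10.2, 13.4 and 9.52 reads per CpG. Their autosomal levels were 72.3% (HOM), 75.5% (HET) and 76.0% (WT), so the HOM library was the lowest genome-wide. Within clustered Zfp genes 20.2% (HOM), 18.0% (HET) and 19.4% (WT) of the CpGs had no read, against 7.18% (HOM), 6.81% (HET) and 7.18% (WT) within single Zfp genes. No genotype has a replicate check, and intervals cover counting error only.

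RefSeq sequences of the start region, 250 bases before to 50 bases after a transcription start (GRCm38.p6), show what the windows hold. A first set pairs genes of the same cluster whose starts differ in methylation. Zfp809, which in mouse binds the primer binding site of murine leukaemia proviruses, starts at chr9:22225453-22225752 on the plus strand, and Zfp872 at chr9:22187916-22188215 on the plus strand. Zfp457 starts at chr13:67306363-67306662 on the minus strand, and Zfp708, which in mouse represses a class of retroelement, at chr13:67097927-67098226 on the minus strand. Capitals mark the CpGs, and sequences run 5′ to 3′ on the strand of the gene.
Zfp809: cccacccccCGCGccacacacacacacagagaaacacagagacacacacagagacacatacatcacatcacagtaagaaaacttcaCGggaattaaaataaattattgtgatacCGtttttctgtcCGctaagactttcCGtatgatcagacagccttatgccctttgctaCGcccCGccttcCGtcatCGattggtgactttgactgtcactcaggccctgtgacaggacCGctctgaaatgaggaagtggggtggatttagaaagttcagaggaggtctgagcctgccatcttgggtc
Zfp872: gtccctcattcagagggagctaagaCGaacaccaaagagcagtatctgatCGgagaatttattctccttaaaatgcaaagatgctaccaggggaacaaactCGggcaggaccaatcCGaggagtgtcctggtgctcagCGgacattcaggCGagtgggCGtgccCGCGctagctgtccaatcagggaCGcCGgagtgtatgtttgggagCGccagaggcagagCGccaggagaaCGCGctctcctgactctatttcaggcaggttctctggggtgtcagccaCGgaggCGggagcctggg
Zfp457: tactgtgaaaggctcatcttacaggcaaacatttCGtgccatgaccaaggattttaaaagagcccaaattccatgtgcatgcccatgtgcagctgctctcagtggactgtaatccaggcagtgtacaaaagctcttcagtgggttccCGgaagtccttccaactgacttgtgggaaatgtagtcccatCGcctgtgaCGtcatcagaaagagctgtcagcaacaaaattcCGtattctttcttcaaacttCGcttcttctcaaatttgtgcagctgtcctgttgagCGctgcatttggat
Zfp708: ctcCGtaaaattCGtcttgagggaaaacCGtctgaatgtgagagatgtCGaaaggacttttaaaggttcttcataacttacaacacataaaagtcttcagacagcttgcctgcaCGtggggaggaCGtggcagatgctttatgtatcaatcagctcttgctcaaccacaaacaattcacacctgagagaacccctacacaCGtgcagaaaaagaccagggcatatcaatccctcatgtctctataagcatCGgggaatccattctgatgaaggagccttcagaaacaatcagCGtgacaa

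The start of Zfp809, with 11 CpGs, was at 0% in HOM, 0.508% in HET and 1.03% in WT (66, 197 and 97 CpG reads). The start of Zfp872, with 17 CpGs, was at 80.8% in HOM, 77.0% in HET and 89.2% in WT (146, 100 and 83 reads). The start of Zfp457, with 7 CpGs, was at 0.840% in HOM, 0.455% in HET and 1.75% in WT (119, 220 and 171 reads). Zfp708, with 9 CpGs, was at 92.9% in HOM, 91.0% in HET and 92.9% in WT (42, 67 and 84 reads). The pairs were chosen for this contrast, and in each the gene with more CpGs is the methylated one. Other starts of the same clusters with more CpGs were unmethylated, among them Zfp653 with 22 CpGs (1.03% in HOM, 0.444% in HET and 0% in WT) and Zfp810 with 20 CpGs (0.562% in HOM, 0.272% in HET and 0% in WT) in the first cluster and Zfp712 with 16 CpGs (0.781% in HOM, 0.481% in HET and 0% in WT) in the second.

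A second set shows starts with many CpGs, with few CpGs and at intermediate methylation. Zfp318, whose protein B cells need to make surface IgD, starts at chr17:46383516-46383815 on the plus strand. Zfp229 starts at chr17:21733474-21733773 on the plus strand, inside the span of its gene. Zfp57, which keeps methylation at imprinted loci in the embryo, starts at chr17:37000913-37001212 on the plus strand. Zfp42, also called Rex1 and a marker of pluripotent cells, starts at chr8:43306960-43307259 on the minus strand. Capitals again mark the CpGs.
Zfp318: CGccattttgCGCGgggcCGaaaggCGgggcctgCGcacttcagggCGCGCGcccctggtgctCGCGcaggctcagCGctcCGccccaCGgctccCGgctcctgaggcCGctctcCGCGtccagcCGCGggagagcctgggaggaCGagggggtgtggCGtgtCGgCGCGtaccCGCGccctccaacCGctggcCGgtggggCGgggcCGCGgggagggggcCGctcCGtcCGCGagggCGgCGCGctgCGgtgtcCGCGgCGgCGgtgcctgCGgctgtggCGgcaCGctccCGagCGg
Zfp229: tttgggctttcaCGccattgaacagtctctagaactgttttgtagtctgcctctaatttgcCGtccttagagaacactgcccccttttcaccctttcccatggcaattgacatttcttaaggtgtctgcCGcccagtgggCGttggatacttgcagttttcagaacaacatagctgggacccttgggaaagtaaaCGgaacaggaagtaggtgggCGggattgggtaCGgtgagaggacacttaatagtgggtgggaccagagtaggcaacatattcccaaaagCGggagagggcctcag
Zfp57: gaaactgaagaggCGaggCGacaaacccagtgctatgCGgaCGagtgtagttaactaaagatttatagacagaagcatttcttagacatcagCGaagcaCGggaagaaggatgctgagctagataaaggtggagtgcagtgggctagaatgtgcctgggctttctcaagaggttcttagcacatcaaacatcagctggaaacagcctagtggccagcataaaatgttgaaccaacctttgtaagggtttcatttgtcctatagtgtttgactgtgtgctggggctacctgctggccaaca
Zfp42: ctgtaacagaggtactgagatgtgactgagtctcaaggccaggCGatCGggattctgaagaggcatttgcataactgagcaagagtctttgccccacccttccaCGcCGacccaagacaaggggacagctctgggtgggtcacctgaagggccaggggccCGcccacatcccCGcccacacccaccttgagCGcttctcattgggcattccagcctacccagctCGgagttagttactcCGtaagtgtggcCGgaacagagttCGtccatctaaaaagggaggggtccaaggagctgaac

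Zfp318 carried 49 CpGs in this stretch and was at 0.469% in HOM, 0% in HET and 0.422% in WT (213, 276 and 237 reads). Zfp229 carried 8 CpGs and was at 1.06% in HOM, 0.667% in HET and 2.05% in WT (94, 150 and 146 reads). Zfp57 carried 6 CpGs and was at 84.5% in HOM, 87.7% in HET and 94.4% in WT (58, 106 and 36 reads). Zfp42 carried 11 CpGs and was at 43.0% in HOM, 40.4% in HET and 31.1% in WT (114, 156 and 103 reads). Starts with as few CpGs as Zfp229 and Zfp57 were thus found at both extremes of methylation.

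Over all Zfp genes, CpG-richer ends were mostly at low levels. Their median level was 10.2% in HOM, 10.9% in HET and 10.5% in WT (n = 338 genes), against 13.9% in HOM, 15.8% in HET and 15.4% in WT for the 18925 other genes. At least 50% was reached by 17.5% of Zfp genes in HOM, 17.8% in HET and 18.3% in WT, against 33.5%, 33.7% and 33.7% of the other genes in the same order of libraries. Below 10% lay 166 Zfp genes in HOM (49.1%), 157 in HET (46.4%) and 161 in WT (47.6%). For the other zinc finger families with numbered symbols (Zscan, Zkscan, Zbtb, Klf and Sp) the median was 5.96% in HOM, 6.11% in HET and 6.70% in WT (n = 81).

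Clustered Zfp genes had a higher median at the CpG-richer end than single ones, with 11.2% in HOM, 11.99% in HET and 11.5% in WT for clustered genes and 7.48% in HOM, 8.68% in HET and 8.64% in WT for single genes. With each gene's level first averaged over the 3 libraries, the median over clustered genes was 3.17 points above that over single genes. The clustered genes were not more often highly methylated: 30 of 178 clustered genes reached 50% in each library, against 29 (HOM), 30 (HET) and 32 (WT) of 160 single genes. They were more often between 10% and 50%, where 70 (HOM), 76 (HET) and 71 (WT) clustered genes lay, against 43 (HOM), 45 (HET) and 44 (WT) single genes. Genes are not replicates, and no test was made between clustered and single genes.

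At the CpG-poorer end most Zfp genes were highly methylated. The median was 86.2% in HOM, 89.1% in HET and 90.5% in WT (n = 298), against 82.6% in HOM, 85.7% in HET and 86.5% in WT for other genes. Clustered genes stood at 86.5% in HOM, 88.8% in HET and 90.4% in WT, and single genes at 85.8% in HOM, 89.5% in HET and 90.6% in WT. The clustered median was thus the higher one in HOM and the lower one in HET and WT. With each gene's level first averaged over the 3 libraries the clustered median was 1.04 points above the single one, and this turned to -0.897 points with at least 10 CpGs and 100 reads per window and to -0.781 points with ends of 500 bp on either side, so the order of the groups is not settled here.

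Gene bodies had a median of 78.0% in HOM, 80.7% in HET and 81.6% in WT (n = 349), against 75.7% in HOM, 78.6% in HET and 79.2% in WT for other genes. Clustered bodies stood at 80.2% in HOM, 83.4% in HET and 83.3% in WT, and single bodies at 75.2% in HOM, 78.0% in HET and 79.3% in WT. With each gene's level first averaged over the 3 libraries, the clustered median was 4.54 points above the single one. The bodies of clustered genes were sparser in CpGs, with a median over gene spans of 10.1 per kb against 12.1 in single genes and 12.2 in other genes. Among bodies of at least 12 CpGs per kb the clustered median was 76.7% in HOM, 77.1% in HET and 78.2% in WT (59 genes), and the single median 71.0% in HOM, 72.9% in HET and 71.4% in WT (75 genes). Below 8 CpGs per kb it was 82.2% in HOM, 84.4% in HET and 85.2% in WT for 75 clustered genes, and 79.2% in HOM, 81.8% in HET and 84.9% in WT for 33 single genes. The clustered medians were thus the higher ones at both CpG densities. Levels pooled over reads lay closer together. Clustered bodies of any CpG density pooled to 73.7% in HOM, 76.9% in HET and 77.0% in WT. Single bodies pooled to 73.7% in HOM, 76.1% in HET and 77.1% in WT, so the order of the groups depended on the measure.

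**Figure D1:**
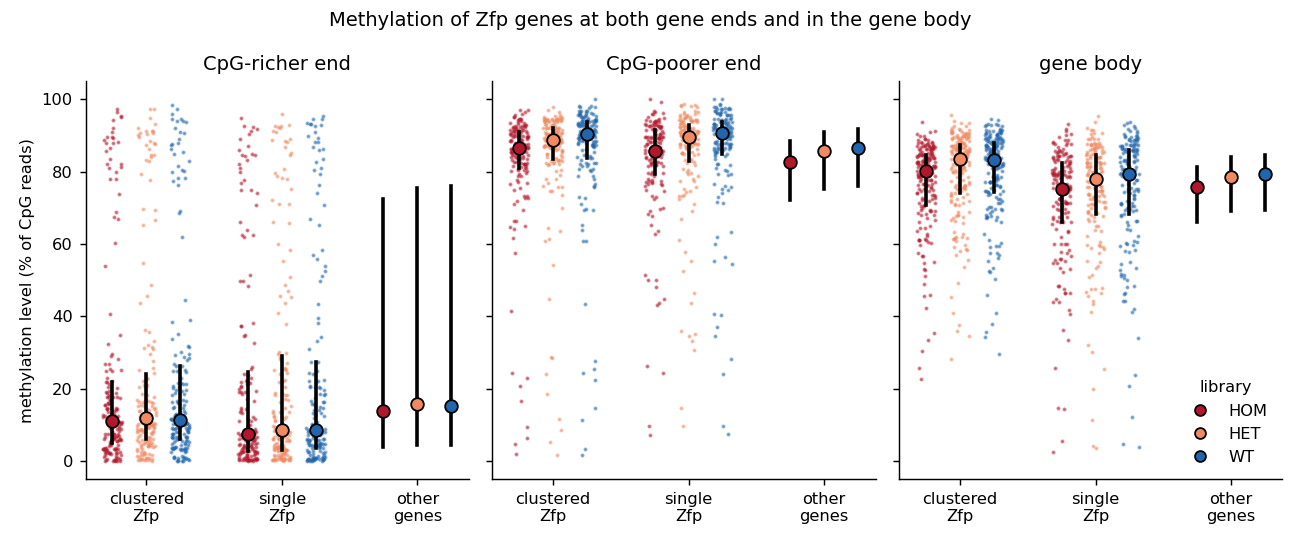
Methylation level (% of CpG reads) of each clustered and single Zfp gene (small points) at the CpG-richer end, the CpG-poorer end and in the gene body, in the HOM, HET and WT libraries. Large circles are medians over genes and bars are interquartile ranges over genes, also for the other genes. CpG-richer ends have medians near 10% with a tail up to almost full methylation, and most CpG-poorer ends lie above 80%, in every library.

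The level of the CpG-richer end went with its number of CpGs. With at least 60 CpGs the median of clustered genes was 4.63% in HOM, 6.40% in HET and 6.40% in WT (44 genes), that of single genes 2.97% in HOM, 3.22% in HET and 3.60% in WT (65 genes), and that of other genes 3.85% in HOM, 4.55% in HET and 4.58% in WT. With fewer than 30 CpGs the clustered genes stood far below the single ones. There the clustered median was 25.5% in HOM, 32.1% in HET and 30.1% in WT (51 genes), the single median 77.3% in HOM, 78.6% in HET and 81.9% in WT (34 genes), and the median of other genes 78.1% in HOM, 81.1% in HET and 81.8% in WT. Of these CpG-poor ends 47.1% of clustered genes reached 50% in each library, against 73.5% (HOM), 73.5% (HET) and 76.5% (WT) of single genes. Clustered windows held fewer CpGs (median 41, against 53.5 in single genes and 51 in other genes), and the order of clustered and single genes was the opposite one among the ends with the fewest CpGs.

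The 300 bases at RefSeq start sites were measured as well, for the 301 Zfp genes that have one in the table (166 clustered, 135 single). These held a median of 13 CpGs, 11 in clustered and 16 in single genes, against 14 in 16155 other genes. Starts with under 5 CpGs made up 8.97% of Zfp starts and 28.5% of the others. Of 258 Zfp starts with enough reads, 226 in HOM, 226 in HET and 230 in WT were below 10% methylated (87.6%, 87.6% and 89.1% of them), against 78.8% in HOM, 78.5% in HET and 78.6% in WT of 11930 other starts. With 5 to 14 CpGs the median of Zfp starts was 0.857% in HOM, 1.14% in HET and 1.10% in WT (116 genes), and that of other starts 7.69% in HOM, 8.0% in HET and 7.66% in WT (3345 genes). Clustered starts of that CpG number had a median of 0.870% in HOM, 1.27% in HET and 1.09% in WT and single ones 0.518% in HOM, 0.641% in HET and 1.18% in WT. The clustered median was thus the higher one in HOM and HET and the lower one in WT. All these medians were low, without a gap as wide as that at the CpG-poor windows above. Those windows are longer and mostly sparser in CpGs than these starts. Of starts with under 5 CpGs, 1 clustered and 5 single had a level, too few to show whether such a gap exists at starts. Of 6 Zfp starts with under 5 CpGs that met the minimum of covered CpGs and reads, all but that of Zfp72 stood at 47.9% or more in every library. With at least 15 CpGs the medians lay close together, at 0.290% in HOM, 0.281% in HET and 0.254% in WT for Zfp starts and 0.305% in HOM, 0.323% in HET and 0.294% in WT for the others.

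**Figure D2:**
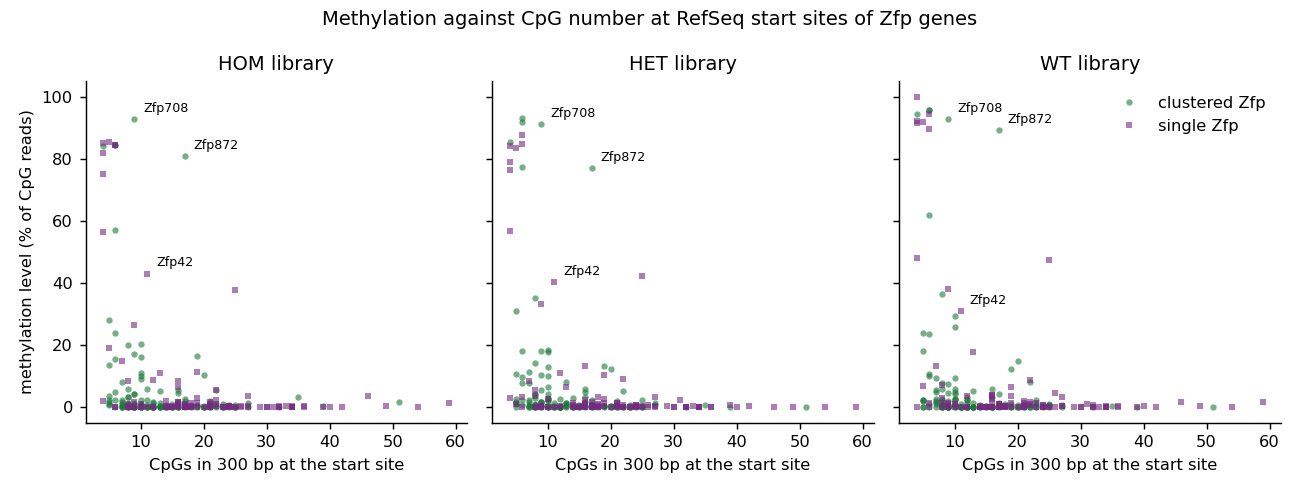
Methylation level (% of CpG reads) against the number of CpGs in the 300 bp RefSeq start region of clustered (circles) and single (squares) Zfp genes, in the HOM, HET and WT libraries. Most starts with at least 5 CpGs lie below 10%, while 5 of the 6 with fewer are highly or partly methylated; Zfp708, Zfp872 and Zfp42 stand above the others of like CpG number.

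Short motifs of factors known from CpG-rich promoters were counted in these stretches on both strands, and none of the motifs is part of another. The ETS motif CCGGAAG was in 69 Zfp starts (22.9%), against 12.1% of other starts and 12.3% of all. The YY1 motif AAGATGGC was in 5.65% of Zfp starts and 3.17% of the others (3.21% of all), the NRF1 motif GCATGCGC in 4.98% and 3.63% (3.65% of all), and the CRE motif TGACGTCA in 2.99% and 2.39% (2.40% of all). The SP1 motif GGGCGG was in 43.9% of Zfp starts and 47.4% of the others (47.3% of all). All these motifs but that of YY1 hold a CpG, and the shares are not matched for CpG number. Starts with under 5 CpGs were 8.97% of Zfp starts and 28.5% of the others, and the part of this in the motif shares was not tested. The start of Zfp457 printed above holds both the ETS and the CRE letters, and that of Zfp809 the YY1 letters on the opposite strand.

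A methylated CpG-richer end did not always mean a methylated start. In 58 Zfp genes (30 clustered, 28 single) the CpG-richer end was at 50% or more in every library. The CpG-richer end was the 5′ end in 28 of these, the 3′ end in 18 and of unknown strand in 12. Of 37 with a level at the RefSeq start, 22 had a start below 10% in every library, 12 a start at 50% or more in every library and 3 lay between. Zfp229 had the highest CpG-richer end of all Zfp genes, at 96.3% in HOM, 97.3% in HET and 98.2% in WT, while its RefSeq start lies 2769 bp inside the gene and is the unmethylated sequence printed above. For Zfp109 the CpG-richer end was at 83.4% in HOM, 87.3% in HET and 86.3% in WT, and the start, 14741 bp inside, at 1.84% in HOM, 1.65% in HET and 0.326% in WT. For Zfp335, which T cells need to mature, the CpG-richer end is the 3′ end, at 90.3% in HOM, 92.8% in HET and 90.8% in WT, and the start lay at 0.913% in HOM, 0% in HET and 0.797% in WT. The start lay over 500 bp from the outermost edge of the gene in 49 of 301 Zfp genes, and 40 (HOM), 40 (HET) and 42 (WT) of the 44 such starts with a level were below 10%.

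The 12 starts at 50% or more in every library belonged to 6 clustered and 6 single genes. They include Zfp57 and Zfp541, a gene of meiosis whose start of 4 CpGs was at 85.1% in HOM, 78.9% in HET and 92.0% in WT. They also include the starts of Zfp872 and Zfp708, which stand out by their 17 and 9 CpGs, since no other of the 12 had more than 6.

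Around the 5′ edge of genes of at least 6 kb, methylation had its minimum just inside the gene and was higher on both sides. In the first 250 bp inside, the level pooled over reads was 4.15% in HOM, 5.28% in HET and 4.802% in WT for 159 clustered genes, 4.11% in HOM, 4.62% in HET and 4.47% in WT for 123 single genes and 6.71% in HOM, 7.39% in HET and 7.26% in WT for other genes. The unmethylated stretch was narrower in clustered genes. From 500 to 750 bp outside the edge the level was 56.0% in HOM, 58.8% in HET and 58.6% in WT for clustered genes, against 27.4% in HOM, 32.1% in HET and 32.3% in WT for single genes. From 1000 to 1250 bp inside it was 46.9% in HOM, 51.4% in HET and 52.3% in WT for clustered genes, against 25.5% in HOM, 28.8% in HET and 29.3% in WT for single genes. The single genes were close to the other genes, which had 30.5% in HOM, 33.1% in HET and 32.8% in WT outside and 27.9% in HOM, 30.9% in HET and 30.9% in WT inside. In the first 250 bp inside, CpGs numbered 53.6 per kb in clustered genes, 64.7 in single genes and 66.0 in other genes, and the part of CpG number in the width was not tested.

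**Figure D3:**
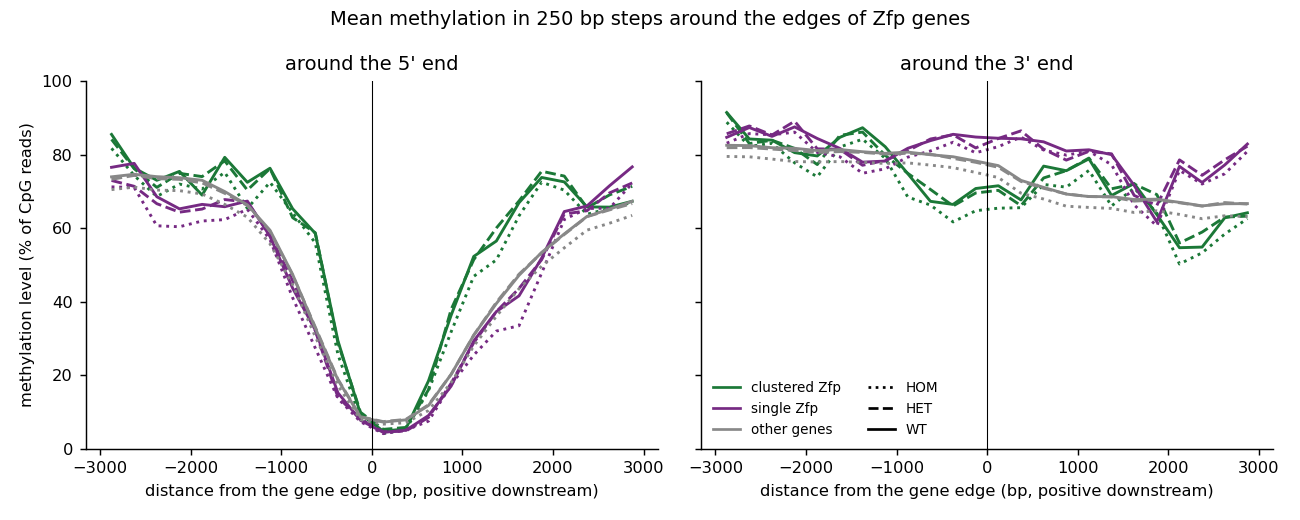
Methylation level (% of CpG reads, pooled over genes in 250 bp steps) against the distance from the 5′ and 3′ edges of clustered Zfp genes, single Zfp genes and other genes, for HOM (dotted), HET (dashed) and WT (solid). Near the 5′ edge the 3 groups share a minimum below 10%, and the dip of the clustered genes is narrower on both sides.

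At the 3′ edge the level pooled over reads and the median over genes differ. From 250 to 500 bp outside, reads pooled over clustered genes gave 61.7% in HOM, 66.0% in HET and 66.5% in WT, and those over single genes 83.4% in HOM, 85.4% in HET and 85.5% in WT. Medians over genes at the 3′ end were 86.1% in HOM, 88.8% in HET and 90.4% in WT for clustered genes and 85.7% in HOM, 89.3% in HET and 90.7% in WT for single genes. Pooling gives CpG-rich windows more weight than a median over genes does.

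The extremes show how far the family spreads. The CpG-poorer end was lowest in Zfp329, where it is the 5′ end, at 2.02% in HOM, 1.67% in HET and 1.70% in WT. The gene body was lowest in Zfp36, which encodes tristetraprolin, a protein that destabilises cytokine mRNAs and is known for immune cells. Its body was at 2.45% in HOM, 4.26% in HET and 4.84% in WT, its 5′ end at 6.82% in HOM, 8.56% in HET and 5.97% in WT and its 3′ end at 9.82% in HOM, 9.74% in HET and 7.47% in WT, so that the whole gene was nearly free of methylation. Zfp503 and Zfp703, corepressors of development, followed with bodies at 5.58% in HOM, 3.65% in HET and 3.96% in WT for Zfp503 and 14.5% in HOM, 11.5% in HET and 12.4% in WT for Zfp703. Zfp830, with 14.8% in HOM, 20.1% in HET and 20.7% in WT, and Zfp688, with 22.6% in HOM, 28.2% in HET and 29.5% in WT, completed the lowest 5 bodies. The lowest CpG-richer ends, Zfp524, Zfp51, Zfp654, Zfp395 and Zfp444, were all below 1% in every library.

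The clusters differed in the median of their CpG-richer ends. The one with the most genes runs from Zfp712 to Zfp273 (chr13:67038594-67827000) and holds Zfp457 and Zfp708. Its 19 genes had a median of 16.8% in HOM, 13.5% in HET and 16.6% in WT. Within it Zfp87 stood at 3.52% in HOM, 5.27% in HET and 6.52% in WT, and Zfp595 at 89.3% in HOM, 88.3% in HET and 94.6% in WT. The 15 genes from Zfp84 to Zfp146 (chr7:29768552-30169775) had a median of 6.32% in HOM, 8.23% in HET and 8.66% in WT, and the 18 genes from Zfp677 to Zfp946 (chr17:21383707-22456689), among them Zfp229, 9.95% in HOM, 11.2% in HET and 9.33% in WT. The 10 genes from Zfp553 to Zfp646 (chr7:127233061-127885996) were lower, at 2.69% in HOM, 4.85% in HET and 3.89% in WT. In the cluster from Zfp180 to Zfp575 (chr7:24081877-24587840), 11 genes had a median of 34.8% in HOM, 31.5% in HET and 33.7% in WT, and they split between low ends such as that of Zfp94 (3.11% in HOM, 4.52% in HET and 5.31% in WT) and high ones such as that of Zfp93 (81.1% in HOM, 84.0% in HET and 80.1% in WT).

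The cluster from Zfp992 to Zfp933 (chr4:146449030-147849126) had the highest median, 67.4% in HOM, 77.7% in HET and 78.3% in WT, over 7 of its 12 genes. Reads were missing at 66.1% of its CpGs in HOM, 59.2% in HET and 61.2% in WT. Where reads lay they were uneven: the body of Zfp992 had 4.91 reads per CpG in HOM, 27.5 in HET and 11.0 in WT. Near-identical copies can lose or share reads, so the values of genes in this cluster are uncertain. Reads were also missing at 64.9% (HOM), 61.9% (HET) and 63.3% (WT) of the CpGs from Zfp972 to Zfp931 on chromosome 2, and at 67.5% (HOM), 67.0% (HET) and 67.8% (WT) from Zfp433 to Zfp938 on chromosome 10.

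**Figure D4:**
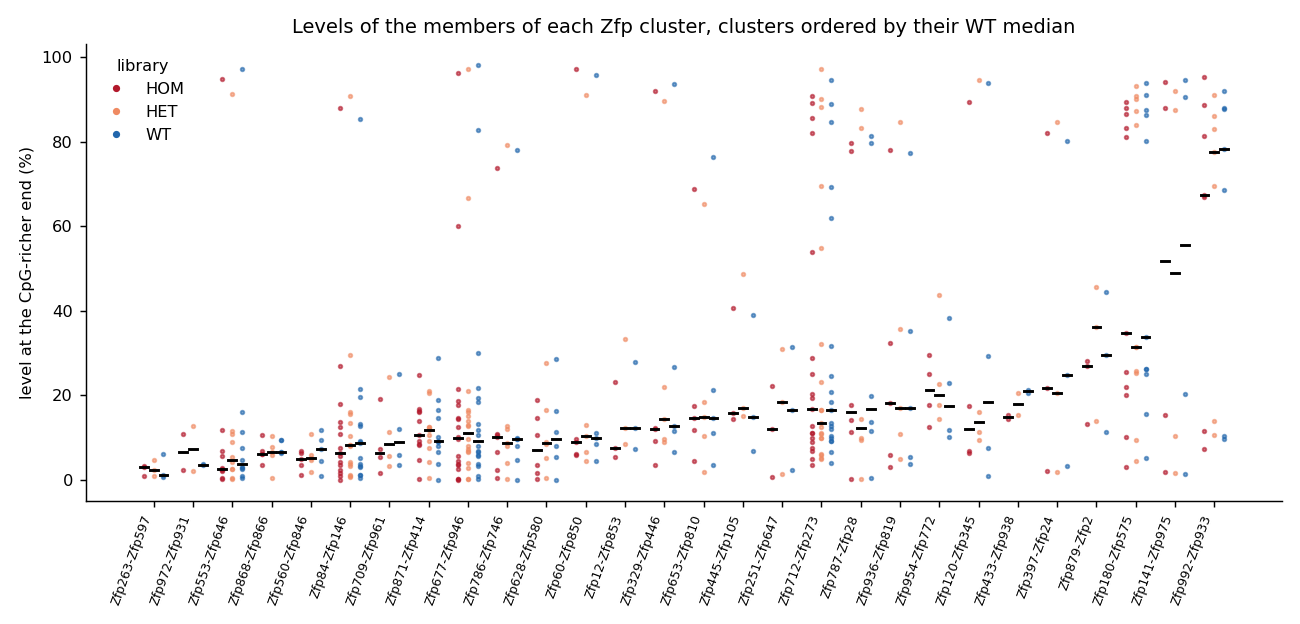
Methylation level (%) at the CpG-richer end of each Zfp gene (points) in each cluster, named by its first and last gene, in the HOM, HET and WT libraries, with the median of the cluster as a black bar. Clusters are ordered by their WT median. Most hold a majority of ends below 30%, and in some clusters individual genes lie above 60%.

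Set against WT, the HOM library was lower over Zfp genes in all 3 windows as deposited, and after scaling to equal levels outside gene windows it was lower at the CpG-richer end alone. The mean difference HOM minus WT was -1.45 points at the CpG-richer end (95% interval -1.75 to -1.16), -3.09 points at the CpG-poorer end (-3.63 to -2.56) and -3.07 points in the gene body (-3.26 to -2.87). Levels were lower in HOM than in WT at 228 of 338 CpG-richer ends, 211 of 298 CpG-poorer ends and in 296 of 349 bodies. Other genes differed by similar amounts, -1.62, -3.10 and -3.22 points in the same order of windows. The HOM library was lower genome-wide, and with the mutant libraries scaled to the WT level outside gene windows the Zfp difference became -0.381 points at the CpG-richer end and turned to 0.760 points at the CpG-poorer end and 0.464 points in the body. Scaling moved the median difference HOM minus WT of all genes by 0.667, 3.70 and 3.53 points in these windows. Under it the mean difference of the other genes became -0.0454, 0.527 and 0.133 points, against the -0.381, 0.760 and 0.464 points of the Zfp genes.

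HET minus WT was smaller, with means of -0.237 points at the CpG-richer end (-0.509 to 0.0345), -1.01 points at the CpG-poorer end (-1.49 to -0.528; -0.0420 points, -0.567 to 0.483, with at least 10 CpGs and 100 reads, and -0.357 points, -0.840 to 0.126, scaled) and -0.440 points in the body (-0.614 to -0.266), where the sign turned under scaling (0.155 points). HOM minus HET was -1.22 points (-1.49 to -0.945), -2.08 points (-2.59 to -1.57) and -2.63 points (-2.81 to -2.44), and the signs at the CpG-poorer end and in the body turned under the same scaling. The comparisons share libraries and are not independent of each other. Clustered and single genes differed alike from WT in HOM: the body difference was -3.18 points (-3.48 to -2.88) for clustered and -2.94 points (-3.17 to -2.70) for single genes. In HET the body difference was -0.0496 points (-0.317 to 0.218) for clustered and -0.881 points (-1.10 to -0.665) for single genes, intervals that do not overlap. These intervals count reads as independent and carry no spread between animals.

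The reads of single windows were compared between libraries by Fisher's exact test (two-sided, Benjamini-Hochberg adjustment over every autosomal protein-coding gene), and a window was called where the adjusted p was below 0.05 and the levels differed by at least 10 points. The test compares these libraries, not the genotypes. Shares of all genes called the same way follow each count. At the CpG-richer end 9 of 338 Zfp genes were called between HOM and WT (4.72% of all genes), with 1 higher in HOM (1.05%) and 8 lower (3.67%). Between HET and WT 9 were called (2.77%), with 4 higher in HET (1.47%) and 5 lower (1.3%), and between HOM and HET 9 (3.85%), with 1 higher in HOM (0.774%) and 8 lower (3.07%). At the CpG-poorer end 16 of 298 were called between HOM and WT (5.1%), with 5 higher in HOM (0.851%) and 11 lower (4.25%). Between HET and WT 4 were called there (1.81%), with 3 higher in HET (0.746%) and 1 lower (1.06%), and between HOM and HET 17 (4.53%), with 5 higher in HOM (0.779%) and 12 lower (3.75%). Of 349 bodies, 8 were called between HOM and WT (3.22%), with 2 higher in HOM (0.279%) and 6 lower (2.94%). Between HET and WT 7 bodies were called (1.34%), with 2 higher in HET (0.541%) and 5 lower (0.798%), and between HOM and HET 7 (2.33%), with 3 higher in HOM (0.273%) and 4 lower (2.06%). As shares of the Zfp windows measured, calls made up 2.66% of CpG-richer ends in each comparison. At the CpG-poorer end they made up 5.37% between HOM and WT, 1.34% between HET and WT and 5.7% between HOM and HET, and in bodies 2.29%, 2.01% and 2.01% in the same order. The Zfp share was above that of all genes at the CpG-poorer end between HOM and WT and between HOM and HET and in bodies between HET and WT, and below it in the other comparisons. Some of these shares lay close together, such as 5.37% and 5.1% (CpG-poorer end, HOM against WT) or 2.66% and 2.77% (CpG-richer end, HET against WT). The differences between Zfp genes and all genes in these shares were not tested. Between HOM and WT the calls were 4 clustered and 5 single genes at the CpG-richer end, 8 and 8 at the CpG-poorer end and 4 and 4 in bodies. Of the 17 CpG-poorer ends called between HOM and HET 4 were clustered and 13 single (2.6% and 9.03% of their windows), a difference that was not tested.

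The CpGs of a read tend to be methylated together. With counts first divided by the expected CpGs per read of 150 bp, no Zfp end was called in any comparison. Of all genes 0.0156% (HOM against WT), 0.0104% (HET against WT) and 0% (HOM against HET) were called in this way at the CpG-richer end, and 0.0166%, 0.011% and 0.0166% at the CpG-poorer end. Of Zfp bodies 7 were called between HOM and WT (1.53% of all genes), 1 between HET and WT (0.208%) and 2 between HOM and HET (0.995%). Among the genes called with undivided counts in any window and comparison, those named next have the greatest differences with at least 60 reads in both libraries.

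Among CpG-richer ends, that of Zfp9 differed most between HOM and WT. It was at 34.8% in HOM, 46.9% in HET and 58.2% in WT (224, 307 and 213 reads), and HOM minus WT was -23.4 points (95% interval -32.1 to -14.1; Fisher's exact test, adjusted p = 6.32e-05). The 5′ end of Zfp879 was at 28.2% in HOM, 45.6% in HET and 44.5% in WT, so that HOM alone was lower (-16.3 points against WT; Fisher's exact test, adjusted p = 0.000297). The CpG-richer end of Zfp948, its 3′ end, was at 60.2% in HOM, 66.7% in HET and 82.8% in WT, lower in both mutant libraries. Zfp513 was the 1 gene with a higher end in HOM, at 51.4% in HOM, 41.0% in HET and 39.6% in WT, and its window also lies in the gene Ppm1g. The 5′ end of Zfp488, a gene of oligodendrocyte development, was called higher in HET, at 32.6% in HOM, 37.8% in HET and 24.3% in WT.

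Among CpG-poorer ends the 3 named as highest in HOM against WT were 3′ ends. That of Zfp64 was at 62.7% in HOM, 30.7% in HET and 40.5% in WT, 22.2 points above WT (11.4 to 32.3; Fisher's exact test, adjusted p = 0.00431). That of Zfp423, whose protein partners the B cell factor EBF1 in other settings, was at 43.1% in HOM, 34.5% in HET and 24.1% in WT (620, 850 and 535 reads), 18.95 points higher in HOM (13.5 to 24.2; Fisher's exact test, adjusted p = 1.78e-08) and 10.4 points higher in HET (adjusted p = 0.00648). Its 5′ end lay at 1.92% in HOM, 1.85% in HET and 1.80% in WT. Zfp82 had 86.6% in HOM, 86.9% in HET and 69.6% in WT, higher in both mutant libraries. Zfp113 had 72.3% in HOM, 80% in HET and 94.4% in WT, 22.1 points lower in HOM (Fisher's exact test, adjusted p = 0.00146).

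In gene bodies the reads are many and some calls held when reads were counted as linked. The body of Zfp939 (chr7:39449479-39477429, a single gene, 192 CpGs) was at 74.99% in HOM, 69.1% in HET and 83.6% in WT (1991, 2609 and 2118 reads). HET minus WT was -14.4 points (-16.8 to -12.03; Fisher's exact test, adjusted p = 1.93e-28, and 4.31e-11 with linked counts), and HOM lay between the other libraries. The body of Zfp622 (chr15:25984366-25998482) was at 36.4% in HOM, 45.7% in HET and 48.3% in WT, -11.9 points in HOM against WT (-15.1 to -8.73; Fisher's exact test, adjusted p = 3.02e-12, and 0.0235 linked). That of Zfp263 (chr16:3744099-3750790) was at 53.2% in HOM, 58.3% in HET and 67.6% in WT, -14.4 points in HOM against WT (-19.2 to -9.35; Fisher's exact test, adjusted p = 1.28e-07, and 0.00989 linked). In both genes the libraries lie in the order HOM, HET, WT.

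The body of Zfp229 (chr17:21730955-21748969) was higher in both mutant libraries, at 62.6% in HOM, 63.3% in HET and 52.3% in WT. Its differences from WT were 10.3 points in HOM (6.36 to 14.3; Fisher's exact test, adjusted p = 1.56e-06, and 0.0399 linked) and 11.0 points in HET (7.18 to 14.8; adjusted p = 5.44e-07, and 0.112 linked). The body of Zfp992 was called higher in HOM, at 83.3% in HOM, 72.0% in HET and 72.5% in WT, in the cluster on chromosome 4 whose reads are uneven between libraries; the part of read placement in it was not tested. The body of Zfp58 (chr13:67490167-67500522) was at 75.2% in HOM, 85.6% in HET and 84.2% in WT, 10.4 points lower in HOM than in HET (Fisher's exact test, adjusted p = 8.87e-08, and 0.0072 linked).

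**Figure D5:**
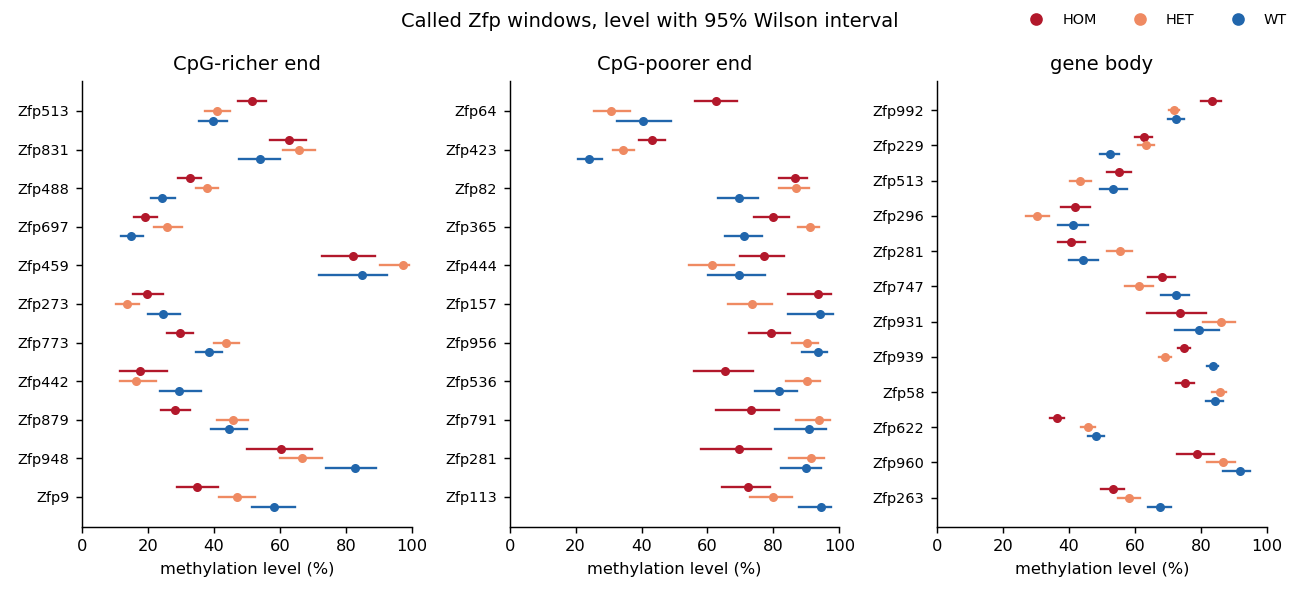
Methylation level (%) with its 95% Wilson interval for the called Zfp windows with the greatest differences, at the CpG-richer end, the CpG-poorer end and in the gene body, in the HOM, HET and WT libraries. Zfp9 and Zfp263 lie in the order HOM, HET, WT, while Zfp64 is highest in HOM and Zfp939 lowest in HET.

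By known role, the keepers of imprints gave no call. Zfp445 had a 5′ end at 15.9% in HOM, 15.2% in HET and 6.84% in WT, and Zfp57 a 5′ end at 70.0% in HOM, 66.8% in HET and 74.8% in WT. Of 7 listed silencers of retroelements and repeats 6 had a CpG-richer end, and 1 was called, Zfp429, lower in HET (1.3% of all genes were; 8.98% in HOM, 6.23% in HET and 16.6% in WT; Fisher's exact test, adjusted p = 0.0123). Their levels spread widely. Zfp809 stood at 4.44% in HOM, 1.88% in HET and 3.66% in WT and Zfp568, which in mouse represses a placental transcript of Igf2, at 4.197% in HOM, 8.23% in HET and 5.10% in WT. Zfp819 was at 32.4% in HOM, 35.8% in HET and 35.2% in WT and Zfp708 at 91.0% in HOM, 90.2% in HET and 88.9% in WT. Zfp932 was at 34.7% in HOM, 29.7% in HET and 20.3% in WT and was not called (75, 330 and 133 reads).

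Genes of pluripotency, the early embryo and the germline were mostly partly methylated at the 5′ end. Zfp42 was at 49.7% in HOM, 55.3% in HET and 49.8% in WT, Zfp352 at 61.9% in HOM, 59.9% in HET and 65.4% in WT, and Zfp541 at 70.8% in HOM, 75.1% in HET and 74.1% in WT with 95 CpGs. Zfp296 was lower, at 18.6% in HOM, 21.9% in HET and 14.05% in WT, and Zfp281, which is expressed widely, was at 2.13% in HOM, 4.14% in HET and 2.47% in WT. None of the 5 was called at that end. At the CpG-poorer end 2 of 5 were called lower in HOM than in WT, as were 4.25% of all genes, namely Zfp281 (69.6% in HOM, 91.3% in HET and 89.8% in WT) and Zfp296 (82.4% in HOM, 87.8% in HET and 94.6% in WT). In the body, 3 of 5 were called between HET and WT, as were 1.34% of all genes, with Zfp281 higher in HET and Zfp296 and Zfp352 lower. These 3 calls did not hold with linked counts, under which Zfp939 was the 1 Zfp body called between HET and WT. The body of Zfp281 was at 40.6% in HOM, 55.4% in HET and 44.4% in WT, and that of Zfp296 at 41.8% in HOM, 30.3% in HET and 41.2% in WT, so in both genes HET stood apart and HOM lay near WT.

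Genes with lymphoid or immune roles had low CpG-richer ends, with a median over 10 of 11 listed of 4.42% in HOM, 2.74% in HET and 2.98% in WT. Zfp91, a ubiquitin ligase, was at 0.801% in HOM, 0.411% in HET and 0.351% in WT and Zfp318 at 4.54% in HOM, 3.63% in HET and 4.17% in WT. The call among them at this end was Zfp831, higher in HET (1.47% of all genes were; 62.6% in HOM, 65.9% in HET and 53.9% in WT). The 10 genes of general cell function gave no call in any window or comparison. Among them Zfp143, a factor of promoter contacts, was at 0.382% in HOM, 0.414% in HET and 0.406% in WT, and Zfp598, which marks collided ribosomes, at 7.40% in HOM, 6.37% in HET and 14.7% in WT. Of 5 genes of development, Zfp488 was called at the CpG-richer end as given above, and the 3′ end of Zfp536, a repressor of neuronal differentiation, was at 65.4% in HOM, 90.1% in HET and 81.7% in WT and called lower in HOM than in HET. At the CpG-poorer end 3.75% of all genes were called in that way.

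The corepressor of KRAB proteins and its partners were measured for the same windows, with 24 of 25 listed genes on autosomes. None was called at the CpG-richer end, where their median was 7.11% in HOM, 8.33% in HET and 9.39% in WT. Trim28 itself was at 0.234% in HOM, 0.437% in HET and 0.250% in WT, and Setdb1 at 20.8% in HOM, 13.3% in HET and 13.8% in WT. At the CpG-poorer end 1 of 24 genes was called, Atf7ip, a partner of SETDB1, higher in HOM than in HET (0.779% of all genes were). In bodies Cbx3, an HP1 protein, was called lower in HET than in WT (50% in HOM, 42.0% in HET and 53.2% in WT) and Tasor, of the HUSH complex, lower in HOM than in HET (55.6% in HOM, 67.6% in HET and 64.4% in WT). Each was 1 of 24 bodies, and of all gene bodies 0.798% and 2.06% were called in these ways.

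Markers of cell types were read as levels of methylation only, and their CpG-richer ends are given here. Genes of each cell type were also called at the CpG-poorer end or in the body, and those calls are not listed. The CpG-richer ends of 6 B cell genes had a median of 41.2% in HOM, 36.1% in HET and 49.2% in WT, with 2 called lower in HOM than in WT (3.67% of all genes) and 2 lower in HET than in WT (1.3%). Pax5, a factor that defines B cells, was at 4.77% in HOM, 4.52% in HET and 9.42% in WT, and Cd79a, a chain of the B cell receptor, at 32.9% in HOM, 26.6% in HET and 38.9% in WT. The 6 T cell genes had a median of 54.1% in HOM, 64.8% in HET and 52.8% in WT, and 3 of them, Cd3e, Cd3g and Cd8a, were called higher in HET than in WT (1.47% of all genes) and lower in HOM than in HET (3.07%). Between HOM and WT, Lck was called higher (1.05% of all genes) and Cd8a lower (3.67%) in HOM. The 6 myeloid genes had a median of 75.7% in HOM, 78.2% in HET and 80.4% in WT, with Itgam called higher (1.47% of all genes) and Csf1r lower (1.3%) in HET than in WT. The part of other cells in the samples in the differences between libraries was not tested.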

How the data were processed

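Per the file headers, the authors' deposited table holds raw counts per CpG of GRCm38 (mm10), with methylated and covering reads in B cells of each genotype. The submitters' processing notes name Trim Galore 0.2.8, Bismark, Bowtie2 and Picard 1.91, and BWA 0.7.13, Picard 2.3.0 and MethylDackel; which made the columns, with which filters, and whether a column pools the 2 samples of a genotype are not given in the sources used here. Per the labels, 200 ng of DNA sheared to 800 bp was read as pairs of 150 bp.

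Gene spans were those of RefSeq on GRCm38.p6, strand and start sequences from its promoter table, for 301 of 360 genes. Exons, introns and UTRs were not assigned. A gene span can start upstream of the RefSeq start used. Levels (Wilson), differences (Newcombe) and means over genes (normal) have 95% intervals that cover counting error only, treat reads as independent and say nothing of the spread between animals. Called windows passed a two-sided Fisher's exact test, Benjamini-Hochberg adjusted over all autosomal protein-coding genes with that window, below 0.05, with at least 10 points of difference. The call procedure was tested on simulated data, with independent reads and planted changes well above 10 points in windows at middle levels. That simulation cannot show errors from linked CpGs, from differences near 10 points or at very low or high levels. Alternatives changed the coverage minimum, the end windows, the symbols taken, the scaling, the weight of CpGs, the size of difference, the linkage of CpGs in a read and the cluster rule.

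The members and all lists were chosen with earlier results of these data known. Named genes are the role lists, up to 3 called genes per direction, window and comparison with at least 60 reads in both libraries, the 5 extremes, and the ends of clusters of 5 or more. Zfp87, Zfp93, Zfp94, Zfp109, Zfp335 at its start, Zfp457, Zfp595, Zfp653, Zfp712, Zfp72, Zfp810 and Zfp872 and the clusters of under 5 genes were named after their values were seen. Python 3.11.15, numpy 2.4.6, pandas 2.3.3, SciPy 1.17.1 and matplotlib 3.10.9 were used.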

Additional observations from a re-analysis of the deposited data

How the results depend on the processing

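Of 124 recomputed values 74 moved by less than their limit, 43 moved more and 7 changed sign; the cause was not tested beyond what each setting changes by construction. Scaling the mutant libraries to the WT level outside gene windows gave mean differences HOM minus WT of -0.381 (CpG-richer end), 0.760 (CpG-poorer end) and 0.464 points (body). It gave -0.357 (CpG-poorer end) and 0.155 points (body) for HET minus WT, and -0.323, 1.13 and 0.306 points for HOM minus HET in the same order of windows, with 10 CpG-poorer ends called between HOM and WT. At least 10 CpGs and 100 reads per window gave, at the CpG-poorer end, -1.72 points for HOM minus WT, -0.0420 for HET minus WT, 11 calls between HOM and HET, and clustered genes 0.897 points lower than single ones (-0.897).

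Ends of 500 bp on either side gave, at the CpG-richer end, -0.865 points for HOM minus WT, -0.839 for HOM minus HET, 5 calls between HOM and WT and 3 between HET and WT. They gave 9 calls between HOM and HET at the CpG-poorer end, and clustered minus single medians of 1.46 and -0.781 points at the CpG-richer and CpG-poorer end. Equal weight for each CpG gave -0.872 points for HOM minus WT and -0.747 for HOM minus HET at the CpG-richer end, and -2.43 for HOM minus HET in bodies. A minimum of 20 points left 2, 0 and 0 calls at the CpG-richer end (HOM against WT, HET against WT, HOM against HET), 3, 1 and 5 at the CpG-poorer end and 0, 0 and 0 in bodies. Linked counts left 0 calls at both ends in each comparison, and 1 (HET against WT) and 2 (HOM against HET) in bodies.

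The clustered minus single median at the CpG-richer end was 3.78 points with suffixed symbols (4.84 in bodies), 2.14 with gaps of at most 100 kb (3.65 in bodies), 3.67 with 500 kb (5.50 in bodies), 1.14 with runs of at least 5 genes (2.39 in bodies, 0.274 at the CpG-poorer end) and 3.75 with ends taken by strand, an alternative chosen after seeing the data. No paired analysis was possible because the table holds 1 set of counts per genotype and its columns carry no replicate number. Protein features could not be computed from the tables used here. Depth limits windows of few CpGs, and clusters of near-identical genes are sparsely read.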

Other observations

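The 28 genes whose symbol carries letters after the number were left out of the values above and enter only the alternative named with suffixed symbols. Counts of calls by chromosome follow. The share of all genes called on each chromosome is not given here, so these counts cannot show whether calls gather on a chromosome. The 9 CpG-richer ends called between HOM and WT lay on 8 chromosomes, while 3 of the 9 called between HET and WT were on chromosome 2. At the CpG-poorer end 6 of 16 called between HOM and WT and 6 of 17 called between HOM and HET were on chromosome 7, which carries 90 of the 360 Zfp genes. Chromosome 15, which carries Kmt2d, holds 10 of the 360. On it lay 1 CpG-richer end, 1 CpG-poorer end and 2 of the 8 bodies called between HOM and WT, Zfp622 among these bodies. Whether lying on the same chromosome as Kmt2d had a part in these calls was not tested. CpGs that switched between at most 10% in one library and at least 80% in another, with at least 5 reads in both, were found in 1 of the 9 CpG-richer ends called between HOM and WT, in 1 of the 17 CpG-poorer ends called between HOM and HET and in 1 of the 7 bodies called between HET and WT.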
